A study of Mus musculus with 4 samples.

Results

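The 40 genes described here supply amino acids to protein synthesis or act in the integrated stress response. They comprise 19 cytosolic aminoacyl-tRNA synthetases, 7 amino acid transporters, 7 enzymes of serine, one-carbon and asparagine synthesis, and 7 stress-response genes. The genes were picked by symbol with earlier results of these data known, and all 40 were found among the 14803 genes that hold an m6A peak in either genotype. Input levels, peaks and genotype differences were all in view when they were picked, so every value below is a description and none carries a test. The study profiled N6-methyladenosine (m6A) in mouse bone-marrow-derived macrophages of the C57BL/6 strain. The cKO cells carried LysM-cre together with Mettl3 fl/fl, so that Cre recombinase under the lysozyme M promoter, active in myeloid cells, acts on loxP-flanked Mettl3. The WT cells carried Mettl3 fl/fl without Cre, and Cre itself and the loss of Mettl3 therefore cannot be told apart. All cells received macrophage colony-stimulating factor for 7 days and then shared a culture for 24 h with MC38, a colon carcinoma line of the mouse. Per genotype there is 1 IP library, made from RNA pieces bound by an antibody to m6A, and 1 input library of the unselected pieces. No spread between cultures is known, every difference has no replicate check, and the read depth behind the values is unknown.

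Aminoacyl-tRNA synthetases load each tRNA with its amino acid, and transporters and biosynthetic enzymes keep the free amino acids available. When uncharged tRNA or misfolded protein accumulates, kinases phosphorylate the initiation factor eIF2 alpha, general translation slows and the mRNA of the transcription factor ATF4 is translated more. ATF4 then switches on many of the genes listed here, among them synthetases, Slc7a11, Asns, Chac1 and Trib3. METTL3 carries the catalytic site of the complex that places m6A on mRNA, most often in the last exon and 3' UTR, and m6A there is known to affect how long an mRNA lasts.

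The genotype labels were not checked by the targeted gene, because Mettl3 has no input value. Its peaks, 4 in the cKO list and 2 in the WT list, were not placed against the floxed part. Macrophage genes were present, with Lyz2 at 1980 FPKM in cKO and 3393 FPKM in WT input and Adgre1 at 162 and 220 FPKM in cKO and WT input. FPKM, as deposited by the authors, scales fragment counts by transcript length and by the size of the library. Of 8 macrophage markers 7 had a value, 5 lower and 2 higher in cKO, and their FPKM in cKO was 54.3% to 142% of that in WT. Lyz2 is the lysozyme M gene, whose promoter drives Cre in the cKO cells. The part of that construct in its lower level was not tested. Of 6 measured mesenchymal markers 5 were higher in cKO, with a median log2 difference of 0.68. Of 8 epithelial markers, Krt19 alone had a value (10.8 FPKM in cKO, 7.05 FPKM in WT), so carry-over of MC38 RNA could not be followed. The part of any of these shifts in the results below was not tested. In bulk RNA of this kind, fewer cells of a type and less RNA per cell cannot be told apart.

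In the input libraries the genes were lower in cKO almost throughout, each by a modest amount. Input values exist only for genes with a listed differential m6A peak, which left 29 of the 40 genes with a value, and 28 of these had a mean of at least 1 FPKM. In 27 of the 28 the cKO level was below the WT level, whereas 54.2% of the 6079 genes measured in the same way were lower in cKO, and 55.7% of those within the FPKM range of the 28. The median difference was -0.35 on the log2(FPKM + 1) scale, cKO minus WT, against -0.02 over all genes, and 6.15% of all genes lay at or below that median. The median gene kept 77.3% of its WT level, and the 28 ranged from 67.5% to 131%. None reached a 1.5-fold difference in either direction on that scale, a size that 1.66% of all genes reached downward and 1.46% upward. In the authors' deposited table the q value of each of these genes was 1. The same held for every measured gene of the marker lists above and of the related lists below. Over the 6079 genes the lowest q value was 0.0327, so the value is not particular to the 28. Nearly all of the 28 genes thus shared a direction, while none reached a 1.5-fold difference. The part of the selection through differential peaks in this was not tested.

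**Figure D1:**
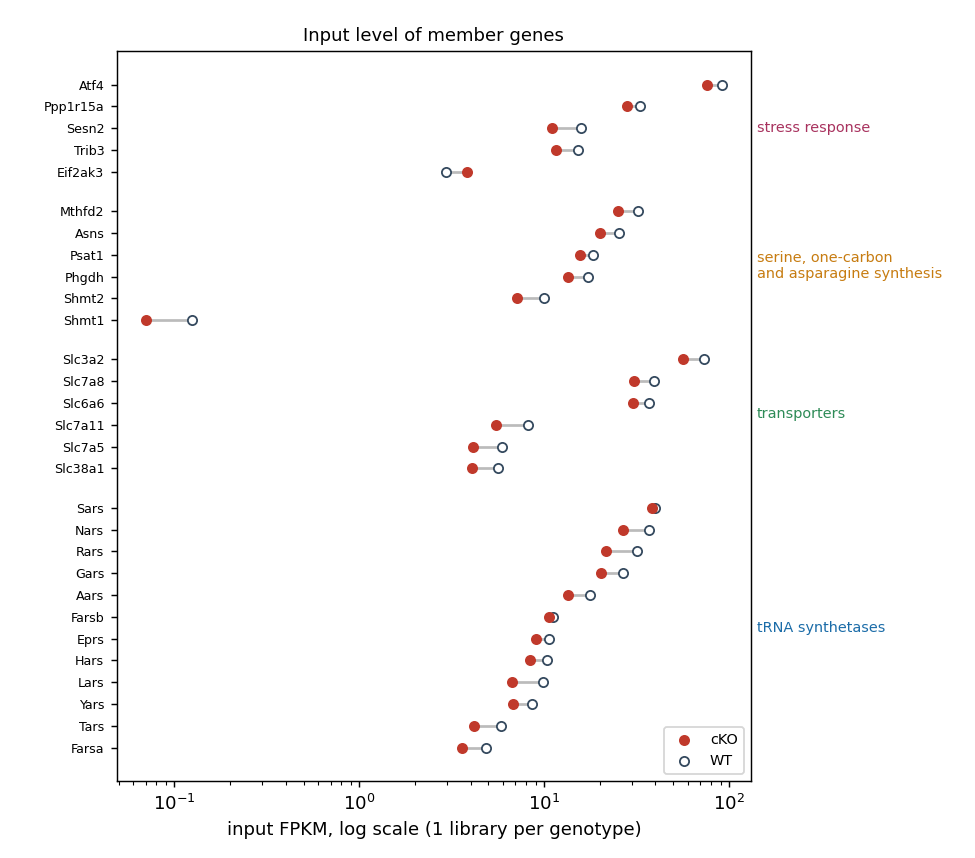
Input FPKM (log axis) of the 29 genes with a value, in cKO (filled) and WT (open) macrophages, 1 library per genotype, grouped by role. The cKO point lies left of the WT point for every gene except Eif2ak3, and Shmt1 sits far below the rest at 0.0702 FPKM in cKO and 0.125 FPKM in WT.

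**Figure D2:**
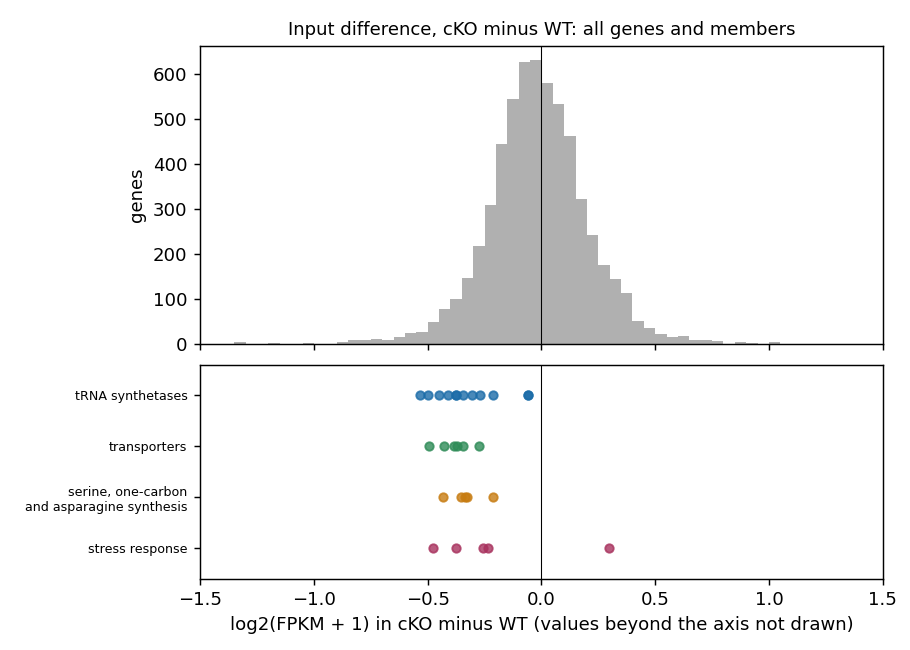
Upper panel, number of genes by log2(FPKM + 1) in cKO minus WT for the 6079 genes with a mean of at least 1 FPKM. Lower panel, the same difference for the 28 genes by role, each point 1 gene; all but 1 lie left of zero, around a median of -0.35.

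Amino acid transporters were lower in cKO input in all 6 of 7 genes with a value, with a median difference of -0.38. Slc7a11, which brings in cystine for glutathione synthesis, stood at 5.50 FPKM in cKO and 8.15 FPKM in WT, 67.5% of WT and the lowest ratio among the 28 genes. Slc7a5, the large neutral amino acid carrier LAT1, had 4.13 FPKM in cKO and 5.91 FPKM in WT. Its partner Slc3a2, the heavy chain shared by several such carriers, had 56.3 FPKM in cKO and 73.0 FPKM in WT. Heavy chain and light chain were thus both lower in cKO, at 77.1% and 70.01% of WT. The related carrier Slc7a8 had 30.8 FPKM in cKO and 39.3 FPKM in WT, and the glutamine carrier Slc38a1 had 4.10 FPKM in cKO and 5.66 FPKM in WT. Slc6a6, which imports taurine, differed least of the group, with 30.3 FPKM in cKO and 36.8 FPKM in WT. Slc38a2, the amino acid-regulated carrier SNAT2, had no input value. Its 3' UTR peak at the gene end, the strongest in cKO, had 1.59 in cKO and 1.23 in WT. The strongest WT peak, at 1.27, was intronic, and the cKO peaks that overlapped it had 0.85 and 0.83.

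The transporters carried 34 m6A peaks in cKO and 29 in WT, in lists of 38697 and 36507 peaks over all genes. Slc38a1 alone held 13 of the transporter peaks in cKO and 7 in WT. The strength of a peak is the authors' log2 of IP over input. The strongest Slc38a1 peak lay in its 5' UTR, at 3.47 in cKO and 2.997 in WT, and that WT peak also overlapped a cKO peak at 1.05. The next 5' UTR peak of the gene in WT, at 1.87, overlapped cKO peaks at 1.24 and 1.15. These places were thus not matched one to one, and their values cover unlike spans. Within introns by the authors' annotation, between 96579455 and 96583981 on chromosome 15 (minus strand, mm10), the cKO list held 6 Slc38a1 peaks. The WT list held 2 there, at 2.14 and 1.97, beside 0.62 to 2.01 in cKO. Of the 6 cKO peaks, 2 failed 0.05 after the authors' adjustment. Only the cKO peaks at 96581557-96581906 and 96583632-96583981 overlapped no WT peak, so several cKO peaks fell on the same WT signal. Of the 9 listed differential transporter peaks, 7 lay in 3' UTRs. The 3' UTR peak of Slc7a5 had the largest negative difference among them, at 1.31 in cKO and 2.14 in WT, a difference of -0.83 in the authors' deposited table (adjusted p 0.000417). Slc7a11 moved the opposite way at chr3:50369741-50370340 in its 3' UTR, with 1.395 in cKO and 0.62 in WT (difference 0.78, authors' deposited table, adjusted p 0.00452). Slc7a11's strongest peak stayed close, at 2.03 in cKO and 1.99 in WT.

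Neighbouring peaks of one 3' UTR could differ in direction. In Slc7a8 the peak at the end of the gene had 1.38 in cKO and 0.90 in WT, a difference of 0.48 (authors' deposited table, adjusted p 0.000516). The peak further upstream, at chr14:54722984-54723533, had 0.74 in cKO and 1.08 in WT, a difference of -0.33 (authors' deposited table, adjusted p 0.00130). A Slc6a6 peak of 125 bp inside an intron reached 3.15 in cKO with IP below input in WT (-0.70), yet the authors' deposited table gives it an adjusted p of 0.0565, while the peak at the end of that gene was lower in cKO (0.97 against 1.47 in WT).

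Enzymes of serine, one-carbon and asparagine synthesis were lower in cKO input in all 5 genes that passed the level filter, with a median of -0.34. Phgdh, which catalyses the first step from glycolysis to serine, had 13.5 FPKM in cKO and 17.3 FPKM in WT. Psat1, the next enzyme of the pathway, had 15.7 FPKM in cKO and 18.4 FPKM in WT, the smallest difference of the group. Shmt2, which passes a carbon unit from serine to folate in mitochondria, had 7.09 FPKM in cKO and 9.94 FPKM in WT. The levels of the first steps and of the folate step were thus lower together. Mthfd2, which acts after Shmt2, had 25.0 FPKM in cKO and 32.3 FPKM in WT, and the asparagine synthetase Asns had 20.1 FPKM in cKO and 25.4 FPKM in WT. The cytosolic Shmt1 was near zero in both libraries and failed the filter, and Psph, the last step of serine synthesis, had no value, while its strongest peak had 1.02 in cKO and 1.39 in WT.

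These genes held 16 peaks in cKO and 19 in WT, most of them in 3' UTRs. Of their 7 differential peaks 5 were lower in cKO, and by the authors' deposited table each of the 7 passed 0.05 after adjustment, as 53.3% of all listed peaks did. The Asns peak at the end of the gene had 0.76 in cKO and 1.31 in WT there, a difference of -0.55 (adjusted p 0.0142). The Shmt2 peak at its gene end went the other way, with 1.5 in cKO and 0.93 in WT (difference 0.57, authors' deposited table, adjusted p 0.0164). Psat1, like Slc7a8, had neighbouring 3' UTR peaks of opposite direction, one nearer the gene end with 1.14 in cKO and 0.77 in WT and one upstream with 0.89 in cKO and 1.35 in WT, both from the authors' deposited table. The exonic Phgdh peak carries the largest difference of all 40 genes in the authors' deposited table, with -0.48 in cKO and 7.07 in WT. That WT value is not matched by the WT peak list, in which the overlapping peak has 1.18, so its size is uncertain. The cKO list holds no peak at this place. Shmt1 had its strongest peak at 2.59 in cKO and 2.05 in WT. Its differential peak, at the gene end, went the other way, with 0.96 in cKO and 1.94 in WT (difference -0.98, authors' deposited table, adjusted p 0.0387). All these Shmt1 values divide by an input near zero.

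Of the 19 tRNA synthetases, all 12 with an input value were lower in cKO, with a median of -0.36 and a range from -0.53 to -0.06. Rars, the arginyl-tRNA synthetase, had 21.5 FPKM in cKO and 31.6 FPKM in WT. Lars (leucine) had 6.70 FPKM in cKO and 9.89 FPKM in WT. Nars (asparagine) had 26.8 FPKM in cKO and 37.0 FPKM in WT. Those 3 had the largest log2 differences of the class, -0.53, -0.50 and -0.45. Tars (threonine) followed with 4.18 FPKM in cKO and 5.88 FPKM in WT, and Gars (glycine) with 20.4 FPKM in cKO and 26.7 FPKM in WT. Aars (alanine) had 13.5 FPKM in cKO and 17.8 FPKM in WT, Yars (tyrosine) had 6.80 FPKM in cKO and 8.63 FPKM in WT, and Hars (histidine) had 8.43 FPKM in cKO and 10.4 FPKM in WT. At the other end of the class, Eprs (glutamate and proline) stood at 85.0% of WT, Sars (serine) at 95.9% and Farsb at 95.5%. Farsa and Farsb encode the subunits of one phenylalanine enzyme, and their levels were not equally lower. Farsa had 3.62 FPKM in cKO and 4.87 FPKM in WT, while Farsb had 10.6 FPKM in cKO and 11.1 FPKM in WT.

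All 19 synthetase genes had a peak in each genotype. They held 66 of the 38697 listed cKO peaks and 54 of the 36507 listed WT peaks, and most differential ones were higher in cKO. The authors' deposited table lists 17 differential peaks in 12 synthetase genes, 15 higher and 2 lower in cKO, whereas 48.9% of all 10355 listed peaks were higher. Limited to those whose adjusted p in that table is below 0.05, the split was 8 higher and 1 lower, beside 45.7% higher among all genes. In Farsa the only peak, at the gene end, had 1.82 in cKO and 0.79 in WT, a difference of 1.02 (authors' deposited table, adjusted p 0.000124). The peak at the end of Nars had 1.89 in cKO and 1.26 in WT (difference 0.63, authors' deposited table, adjusted p 4e-05). Rars had 1.66 in cKO and 1.05 in WT at its gene end (difference 0.61, authors' deposited table, adjusted p 4.87e-05). Input of these 3 genes was lower in cKO, and input is the denominator of peak strength, but its part in these values was not tested. The lower synthetase peaks were those of Tars (0.29 in cKO, 1.17 in WT, adjusted p 0.00505) and Yars (0.19 in cKO, 1.10 in WT, adjusted p 0.12) in the authors' deposited table. In Eprs an intronic peak of 450 bp had the largest positive difference of the class, 2.19 in cKO against 0.19 in WT (authors' deposited table, adjusted p 0.0953).

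The strongest peak listed for any of the 40 genes is named for Aars but cannot be assigned to it with certainty. It lies at the 3' end of the Aars annotation, at chr8:111056758-111057657 in cKO and chr8:111056583-111057657 in WT (plus strand, mm10), with 5.10 in cKO and 5.40 in WT. All of its bases are also exons of Exosc6, an RNA exosome subunit gene that starts inside the Aars annotation on the same strand, so its reads may come from either gene. Away from Exosc6, the first Aars peak, in the 5' UTR by the authors' annotation, had 2.24 in cKO and 3.49 in WT. It ended before the gene start used for the promoters below, and in WT it covered the promoter window at chr8:111033722-111033745. The peak that ends at position 111055757 had 1.38 in cKO and 1.27 in WT. No listed differential peak of the 40 genes shared exons with another gene on its strand. Other strong synthetase peaks had 2.51 in cKO and 2.42 in WT for Dars (aspartate), 2.45 in cKO and 2.504 in WT for Yars, and 2.51 in cKO and 2.10 in WT for Qars (glutamine). Intronic peaks of Nars (2.12) and Eprs (2.02) were in the cKO list and overlapped no WT peak, and an Aars 3' UTR peak (2.67) was in the WT list and overlapped no cKO peak. Like Dars and Qars, a further 5 synthetases had no input value and are known here by their peaks alone. The strongest peak of Vars (valine) had 1.89 in cKO and 1.52 in WT, that of Cars (cysteine) 1.83 in cKO and 1.73 in WT, and that of Kars (lysine) 1.21 in cKO and 1.08 in WT. In Wars (tryptophan) and Iars (isoleucine) it was the lower one in cKO, with 1.41 in cKO and 1.44 in WT for Wars and 1.20 in cKO and 1.34 in WT for Iars.

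**Figure D3:**
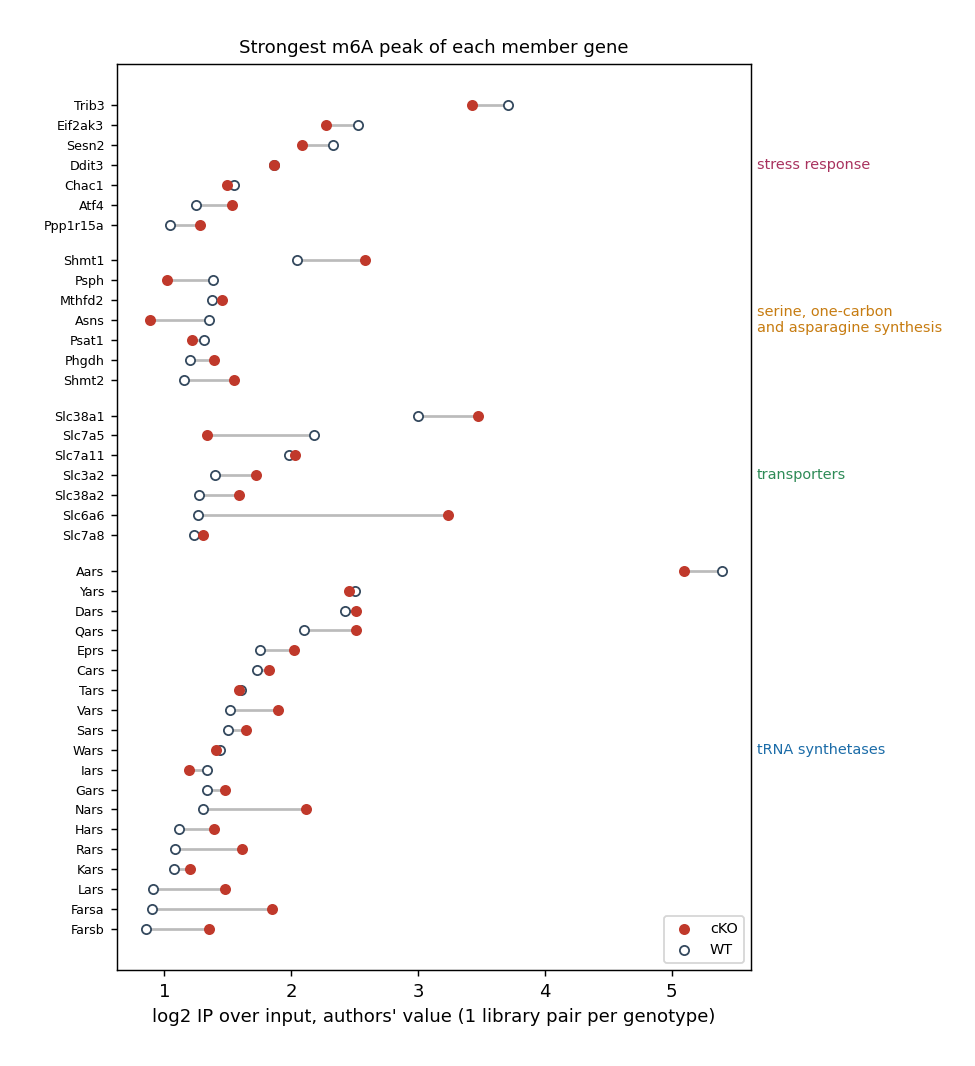
Log2 IP over input of the strongest peak of each of the 40 genes in cKO (filled) and WT (open), the authors' value, 1 IP and 1 input library per genotype, by role. The strongest peak of a gene may lie at different places in cKO and WT, as in Slc38a2. The Aars point (5.10 in cKO, 5.40 in WT) lies in exons shared with Exosc6; the strongest cKO peak of Slc6a6 (3.23) is intronic and has no WT partner.

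Stress-response genes were mostly lower in cKO input, and the peaks of Trib3, Sesn2 and Eif2ak3, the strongest of the group, were lower as well. Input was lower in cKO for 4 of the 5 genes with a value, with a median of -0.26. Atf4, the central transcription factor of the response, had 76.4 FPKM in cKO and 91.6 FPKM in WT. Sesn2, which restrains mTORC1 when leucine is low, had 11.1 FPKM in cKO and 15.9 FPKM in WT. Trib3, a pseudokinase that feeds back on ATF4, had 11.6 FPKM in cKO and 15.3 FPKM in WT. These are a regulator and targets of it, all lower in cKO by less than 1.5-fold. Ppp1r15a (GADD34), which directs the phosphatase that reverses eIF2 alpha phosphorylation, had 27.9 FPKM in cKO and 33.1 FPKM in WT. Eif2ak3 (PERK), the eIF2 alpha kinase of the endoplasmic reticulum, was the single higher gene, with 3.84 FPKM in cKO and 2.94 FPKM in WT. The ATF4 targets Ddit3 (CHOP) and Chac1 had no input value.

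Peaks of the stress genes were few, 11 in each genotype, with medians of 1.54 in cKO and 1.55 in WT. The medians were 1.15 in cKO and 1.04 in WT over all 40 genes, and 1.30 in cKO and 1.22 in WT over all genes. Trib3 held the strongest, in its 3' UTR at chr2:152337422-152338671, with 3.36 in cKO and 3.68 in WT, a difference of -0.32 (authors' deposited table, adjusted p 0.00575). The 3' UTR peak of Sesn2 had 2.00 in cKO and 2.34 in WT there (difference -0.33, authors' deposited table, adjusted p 0.000743). In Eif2ak3 an exonic peak had 1.81 in cKO and 2.495 in WT (difference -0.68, authors' deposited table, adjusted p 0.00353). The strong peaks of a target, an inhibitor of mTORC1 and a kinase were thus lower in cKO, although Eif2ak3 was higher in input. Atf4 and Ppp1r15a had weaker peaks at their gene ends that were higher in cKO. For Atf4 they had 1.504 in cKO and 1.21 in WT (difference 0.29, authors' deposited table, adjusted p 0.000241). Ppp1r15a had 1.24 in cKO and 0.98 in WT (difference 0.25, authors' deposited table, adjusted p 0.0423). The Ddit3 3' UTR peak had 1.87 in cKO and 1.86 in WT, and that of Chac1 had 1.49 in cKO and 1.55 in WT.

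Over all 40 genes the peak lists held 127 peaks in cKO and 113 in WT, beside 38697 in cKO and 36507 in WT over all genes. Peaks of the 40 genes were shared between genotypes about as often as in other genes. Of the cKO peaks 71.7% overlapped a WT peak (95% interval 63.0 to 79.3), beside 71.3% over all genes, and of the WT peaks 76.99% overlapped a cKO peak (68.1 to 84.4), beside 73.2%. The 3' UTR held 68 of the cKO peaks and 69 of the WT peaks by the authors' annotation, and other exonic sequence held 22 in cKO and 24 in WT. Introns held 22 cKO peaks (17.3%, 11.2 to 25.0) and 11 WT peaks (9.73%, 4.96 to 16.8), while over all genes 5.15% of cKO peaks and 4.58% of WT peaks were intronic. Transporters accounted for 11 of the intronic cKO peaks and 6 of the WT ones, and synthetases for 10 in cKO and 4 in WT. All transporter ones in cKO but that of Slc6a6 lay in Slc38a1 and Slc38a2, close together within each gene. The synthetase ones in cKO were spread over more genes. The intervals count neighbouring peaks of a gene as separate. Nascent or retained intron RNA in the input was not measured here.

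**Figure D4:**
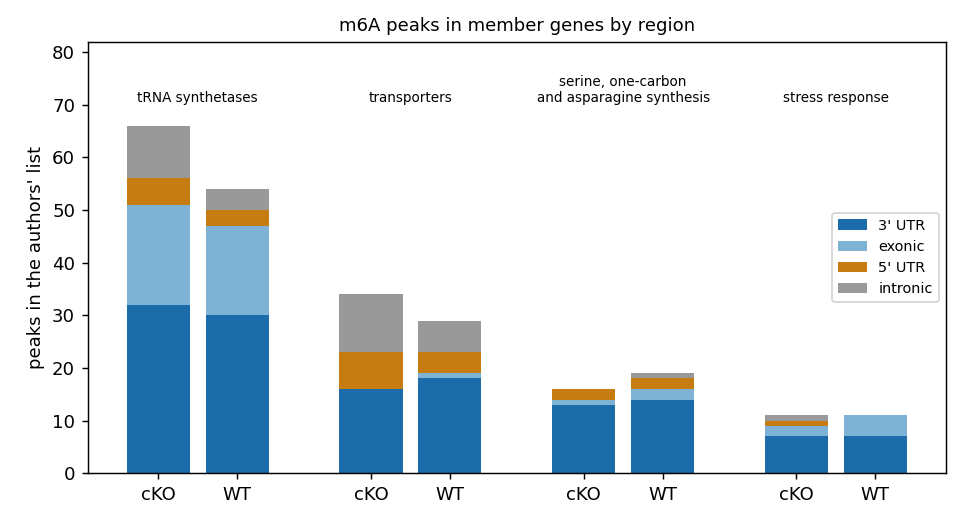
Number of m6A peaks in the authors' lists by region (colours) for each role, cKO bar left of WT bar. Synthetases and transporters hold 21 of the 22 intronic cKO peaks, and the serine group lies mostly in 3' UTRs, with 13 of 16 peaks in cKO and 14 of 19 in WT.

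Many of the genes had a peak at the very end of the annotated gene. A peak ended within 25 bp of it in 31 of the 40 genes in cKO (77.5%) and 32 in WT (80.0%), beside 61.7% in cKO and 60.1% in WT over all genes with a peak. Aars is counted there through the peak it shares with Exosc6. All 7 stress genes had such a peak in each genotype, while 4 of the 7 transporters did. End peaks were stronger than others in these genes, with medians of 1.49 in cKO and 1.32 in WT against 0.96 in cKO and 0.83 in WT elsewhere, as over all genes, with 1.62 in cKO and 1.42 in WT against 1.14 in cKO and 1.11 in WT elsewhere. The 25 bp limit was set after the positions were seen.

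Direction of the m6A difference split by role and by strength. The authors' deposited table lists a differential peak in 29 of the 40 genes, beside 49.9% of all genes with a peak. Its 39 peaks divided into 25 higher and 14 lower in cKO, and those with an adjusted p below 0.05 into 15 higher and 12 lower (55.6% higher). Synthetases had 15 higher and 2 lower, transporters 6 and 3, the serine group 2 and 5, and stress genes 2 and 4. With the adjusted p the transporters stood at 3 higher and 3 lower. At the 71 places where 1 cKO peak overlapped 1 WT peak, whether listed as differential or not, 47 were higher in cKO and the median difference was 0.09, beside 54.8% higher and a median of 0.04 among 19387 such places in all genes. By role, 25 of 37 were higher in synthetases, 12 of 15 in transporters, 8 of 11 in the serine group and 2 of 8 in stress genes. In the serine group the matched and the differential peaks thus leaned opposite ways.

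The roles also differ in peak strength, and over all genes the direction went with strength. Among differential peaks with a mean log2 of 2 or more, 16.6% of all genes' peaks were higher in cKO, and 0 of the 4 from these genes. Between 1 and 1.5, 70.6% of all genes' peaks were higher, and 13 of 17 from these genes. From 0.5 to 1 the numbers were 56.1% over all genes and 8 of 13, and from 1.5 to 2 they were 46.2% and 4 of 5. Synthetase peaks lay in the middle bands, with 6 of 8, 6 of 6 and 3 of 3 higher from 0.5 to 1, 1 to 1.5 and 1.5 to 2, and none at 2 or more. Up to 1.5 the synthetases thus went the way of most peaks of their strength, and from 1.5 to 2 their 3 peaks were too few to compare. The 4 peaks at 2 or more were those of Trib3, Sesn2 and Eif2ak3 and the uncertain one of Phgdh. The bands were drawn after the values were seen. How IP was scaled to input is not given in the sources used here, so a higher value need not mean more m6A.

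**Figure D5:**
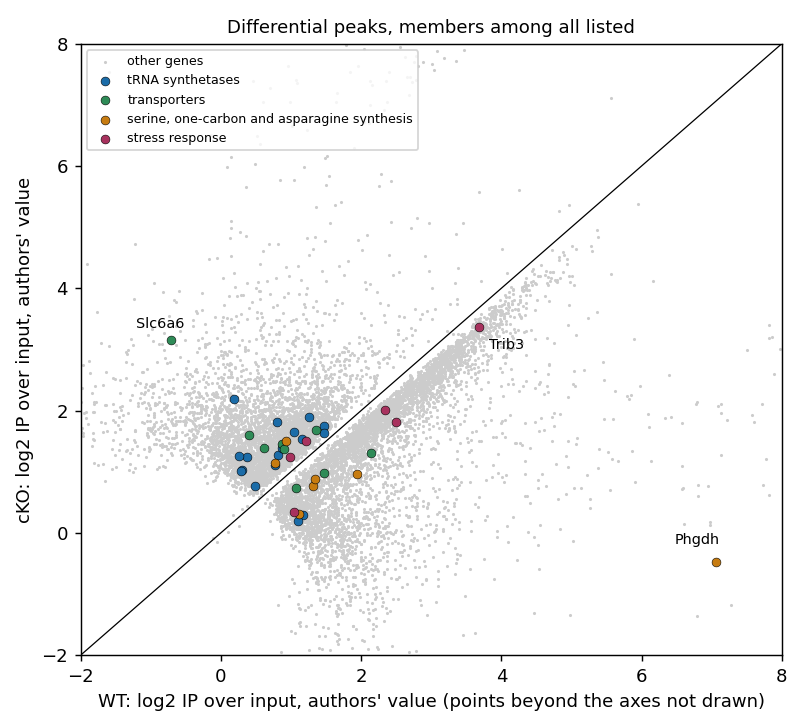
Log2 IP over input in cKO (vertical) against WT (horizontal) for every listed differential peak, the authors' values, with the 39 peaks of these genes coloured by role and the line of equality. Most synthetase peaks lie above the line at WT values below 1.5, strong peaks such as Trib3 lie below it, and the Phgdh point (-0.48 in cKO, 7.07 in WT) stands apart.

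The peaks that were lower in cKO more often held the letters GGACT, the commonest form of the m6A consensus, than those that were higher. The letters were searched on the sense strand in the exonic part of each peak, within the transcript the authors assigned. Of the 12 lower peaks of these genes that could be placed, 7 held GGACT (58.3%), and of the 21 higher peaks 2 did (9.52%), in Aars and Nars. Over all genes the shares were 55.4% of lower and 26.1% of higher peaks. Lower peaks were also longer, with a median exonic length of 475 bases against 275 in higher peaks here, and 642 against 275 over all genes. Per kilobase, GGACT occurred 2.28 times in lower and 0.254 times in higher peaks of these genes, beside 1.32 and 1.02 over all genes. The split by direction was looked at after the sites were seen. The windows below show the GGACT nearest the middle of the exonic peak, in capitals with 8 bases on either side, 5′ to 3′ (mm10). The first 6 come from peaks lower in cKO and show the match within different surroundings, and the last comes from a peak that was higher.
Slc7a5, 3' UTR, chr8:121882432-121882452, minus strand: gctagcttGGACTttagtttt
Slc7a8, 3' UTR, chr14:54723439-54723459, minus strand: aagaaggaGGACTgccccacc
Psat1, 3' UTR, chr19:15905737-15905757, minus strand: ctctaggtGGACTgccttggg
Trib3, 3' UTR, chr2:152337518-152337538, minus strand: tgttctggGGACTtttagtac
Sesn2, 3' UTR, chr4:132493185-132493205, minus strand: tgaaagttGGACTcacagctg
Eif2ak3, exonic, chr6:70892611-70892631, plus strand: tgcctgacGGACTgcgaggac
Aars, 3' UTR by the authors' annotation, chr8:111055026-111055046, plus strand: ccaaccggGGACTgaaagcca

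The lower Slc7a5 peak held 5 GGACT in 900 exonic bases and that of Sesn2 held 6 in 2325, while the Trib3 peak held 1 in 1250. In Slc7a8 and Psat1 the lower of the neighbouring 3' UTR peaks held the GGACT and the higher one held none. A match of letters is no measured m6A site, and a peak without it may hold other forms of the consensus.

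Promoters of the same genes carried the letters of the C/EBP-ATF response element, to which ATF4 binds with C/EBP partners, more often than promoters at large. TGATGNAA was searched on either strand in RefSeq promoters (GRCm38.p6) from 250 bases before to 50 after the gene start, which were found for 30 of the 40 genes. It was present in 9 of the 30 genes, in 29.0% of their promoters, and in 3.97% of all promoters of that length. The 9 were Tars, Gars, Yars, Aars, Iars, Slc7a11, Asns, Trib3 and Chac1. Of them 7 had an input value, each lower in cKO, as were 27 of all 28 genes above the level filter. The element is a known feature of several of these genes, so its presence here describes the choice of genes as much as the data. A few windows are shown to let its forms be compared, with the match in capitals and the strand that of the gene.
Yars, chr4:129189898-129189921, plus strand: agctcagcTGATGCAAcccgacgg
Aars, chr8:111033722-111033745, plus strand: cttgagcaTTGCATCAgccgagcc
Slc7a11, chr3:50443664-50443687, minus strand: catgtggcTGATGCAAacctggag
Asns, chr6:7693217-7693240, minus strand: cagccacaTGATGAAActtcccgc
Trib3, chr2:152344031-152344054, minus strand: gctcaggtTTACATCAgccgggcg
Chac1, chr2:119351041-119351064, plus strand: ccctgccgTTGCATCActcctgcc

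Related genes outside the 40 did not share the lower input as a class. Of the mitochondrial tRNA synthetases, which serve translation inside mitochondria, 5 of 17 passed the level filter and 4 of them were higher in cKO, with a median of 0.08. Yars2 had 2.12 FPKM in cKO and 1.52 FPKM in WT, and Lars2 had 13.4 FPKM in cKO and 11.2 FPKM in WT. Of 25 further stress-response genes 17 were measured, 12 lower and 5 higher in cKO, with a median of -0.04. Among them the ATF4 relative Atf5 had 25.5 FPKM in cKO and 35.4 FPKM in WT. The translation repressor Eif4ebp1, another ATF4 target, had 62.7 FPKM in cKO and 46.7 FPKM in WT. The stress response outside the 40 genes thus held genes of either direction. Of 28 further supply genes 14 were measured, 9 lower and 5 higher, with a median of -0.07. Slc7a2, an arginine carrier, had 192 FPKM in cKO and 310 FPKM in WT, and Gclm, the modifier subunit of the first glutathione synthesis enzyme, had 3.90 FPKM in cKO and 7.69 FPKM in WT. These and the arginine carrier Slc7a1 (2.94 FPKM in cKO, 4.93 FPKM in WT) were at least 1.5-fold lower, a size that none of the 28 genes above the level filter reached. Aldh1l2, a mitochondrial folate enzyme, was higher, with 12.2 FPKM in cKO and 8.47 FPKM in WT.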

How the data were processed

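Poly(A) RNA was immunoprecipitated with an m6A antibody and sequenced in strand-marked libraries, per the labels' protocols. The submitters' processing notes name mm10 as build, and list edgeR, StringTie, ChIPseeker, HOMER, HISAT2 and fastp without role. Not given in the sources used here are the peak caller, tool versions, depth and IP-to-input scaling. The deposited peak lists give a log2 of IP over input with the authors' p-value. The deposited differential table holds peaks with a p-value below 0.05, and the gene table, per the file headers, adds input FPKM for their genes. The authors' linear fold ratio was not used.

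From these, input differences were computed as log2(FPKM + 1), cKO minus WT, at a mean FPKM of at least 1. Peaks were matched on the same strand with at least 1 bp of overlap. Intervals are exact Clopper-Pearson and cover counting error only. Exons, transcripts and positions came from GENCODE M21, 1-based, and promoters from RefSeq. Calculations used Python 3.11.15, pandas 2.3.3 and scipy 1.17.1 and were tested on simulated data. With 1 sample per group no test was made. All 40 genes are named with an input or peak value, and up to 4 genes of each further list by size of input difference. The genes, lists and motifs were chosen with earlier results of these data known.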

Additional observations from a re-analysis of the deposited data

How the results depend on the processing

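Of 59 alternatives, 49 left a count or median within 1.5 times of the reported one or a share within its interval, and 10 did not. None of the medians changed sign, which a count or a share cannot do. The counts of genes at least 1.5-fold different in input, 0 throughout, are among the 49. Requiring 2-fold enrichment left 75 of the 127 cKO peaks and 58 of the 113 WT peaks. Requiring an overlap of 50% of both peaks left 52.0% of cKO and 58.4% of WT peaks shared. Of the differential peaks in the authors' deposited table, 15 of 25 higher ones had an adjusted p below 0.05, 5 had an absolute log2 difference of at least 1 and 2 had both; of the 14 lower ones 12 had such an adjusted p, 1 passed the size limit, and 1 both. With a mean of at least 5 FPKM, a count added after seeing the data, 0 genes were higher in cKO input, because Eif2ak3 left. Centring subtracted the medians of all genes, -0.02 for input differences and -0.18 for differential peaks. No paired analysis was possible because each group has 1 sample.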

Other observations

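The authors' deposited table of differential peaks and the peak lists gave close values at nearly all shared peaks. Of peaks that overlapped 1 list peak, 1.82% of 7700 in cKO and 1.53% of 7636 in WT differed by more than 1 on the log2 scale, and 0 in cKO and 5 in WT by more than 4. The exonic Phgdh peak is among those 5.

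Over 8705 differential peaks of all genes, which share the same input libraries and lie in 6079 genes, the peak difference and the input difference had a Pearson r of -0.09 and a Spearman rho of -0.12. The peak was higher in cKO in 52.8% of cases with lower input and in 44.9% of those with higher input. For the synthetases, all with lower input, 15 of 17 were higher.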
